A study of Caenorhabditis elegans with 2 samples.

Results

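Epidermal hemidesmosome genes of the nematode Caenorhabditis elegans are described here by where the transcription factor ELT-3 was found on them. The 9 genes (of 19973 nuclear protein-coding genes) were listed by name for attaching epidermis to cuticle and muscle. No rule on their binding was used, but earlier results of these data were known when they were listed. The 9 genes are let-805, mup-4, mua-3, vab-10, vab-19, pat-12, ifb-1, mua-6 and ifa-3, and all were found in the annotation. Each gene was examined from 5 kb upstream of its annotated 5′ end to its 3′ end, introns and alternative starts included.

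ELT-3 is a GATA-family factor of the epidermis, and its binding was mapped by ChIP-seq, in which DNA fragments bound by a protein are recovered and sequenced. Both biological replicates were whole L1 larvae of mixed sex from strain OP75, which carries the unc-119(ed3) mutation and the wgIs75 transgene. That transgene makes ELT-3 fused at its C terminus to GFP and FLAG, so binding of the tagged transgene product, in all tissues together, is what was read. There is 1 group, with no other genotype, stage or treatment, so the comparisons are between sites, genes and replicates.

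Hemidesmosomes of the worm epidermis, also called fibrous organelles, span the thin epidermal layer that lies between body wall muscle and cuticle. On the basal side a transmembrane receptor faces the muscle, and on the apical side other receptors face the cuticle. Intermediate filaments and cytoplasmic linkers join both plaques, so that the pull of the muscle reaches the cuticle. Loss of many of these proteins detaches muscle from the body wall or the epidermis from the cuticle.

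The authors deposited 4 lists of ELT-3 peaks on the ce11 build. The IDR set (1014 peaks) is thresholded by the irreproducible discovery rate, which is designed to favour peaks that both replicates rank similarly. Of its peaks, 905 overlapped a peak in each of the 3 other lists. The other lists hold 30000 pooled peaks, 17087 of replicate 1 and 7079 of replicate 2, and are labelled as peaks and background, so a low-ranked row need not be a binding site. Signal is the authors' own value per peak, and peaks were ranked by it within each list, rank 1 being the highest. Signals of different lists are not on a known common scale. Read depth is unknown.

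ELT-3 peaks of the IDR set were found at 2 of the 9 genes, mup-4 and let-805, which encode receptors on opposite faces of the epidermis. Each had a stronger peak in an intron with a GATA site near the summit, and a weaker peak upstream of the gene without one. By the same window 7.01% of all protein-coding genes had an IDR summit, 9.39% of those with a window at least as long as the shortest of the 9 (7.87 kb), 13% of those at least as long as mup-4's and 20.7% of those at least as long as let-805's. The windows of the 9 genes covered 199.99 kb and held 4 IDR summits, or 2.0 per 100 kb (95% exact Poisson interval 0.545 to 5.12, counting error only), against 1.01 over the nuclear genome. That interval includes the genome's value. The intervals of the longer lists, which include background rows, lay above the genome's values. Pooled summits numbered 45.0 per 100 kb (36.2 to 55.3) against 29.9, and replicate 1 summits 24.0 (17.7 to 31.8) against 17.04. Replicate 2 summits numbered 12.5 (8.09 to 18.45) against 7.06. Overlapping pairs of replicate peaks numbered 8.5 (4.95 to 13.6) against 4.38, and a peak in more than 1 pair counted for each. Of the 90 pooled summits, 24 were in vab-10 alone. Sites in 1 gene are not independent, so these intervals are too narrow, and they do not show an excess of binding. No test was made on the list, whose members were chosen with earlier results known.

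Weaker sites lay in most of these windows. Overlapping peaks of both replicates, at any rank, lay in the windows of 8 of the 9 genes, at 17 sites. The exception was mua-3. Such peaks lay in 25.2% of all windows and in 32.5% of those at least as long as the shortest of the 9. For shared sites no share was taken at longer windows, though the median window of the 9 genes was 14426 bp. The IDR share above rose with window length, so the 8 genes lack a share matched for length. Only 2 genes, mup-4 and let-805, had overlapping peaks that ranked within the first 1014 of both replicates, against 5.27% of all genes and 6.86% of those with a window at least as long as the shortest. With the 1014 highest peaks of a single list the genes were again mup-4 and let-805 in the pooled list (7.74% of all genes) and in replicate 1 (7.6%), and in replicate 2 (7.78%) mua-6 joined them. Every one of the 9 windows also held some pooled peak, but so did 87.2% of all genes, which says little about these genes.

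**Figure D1:**
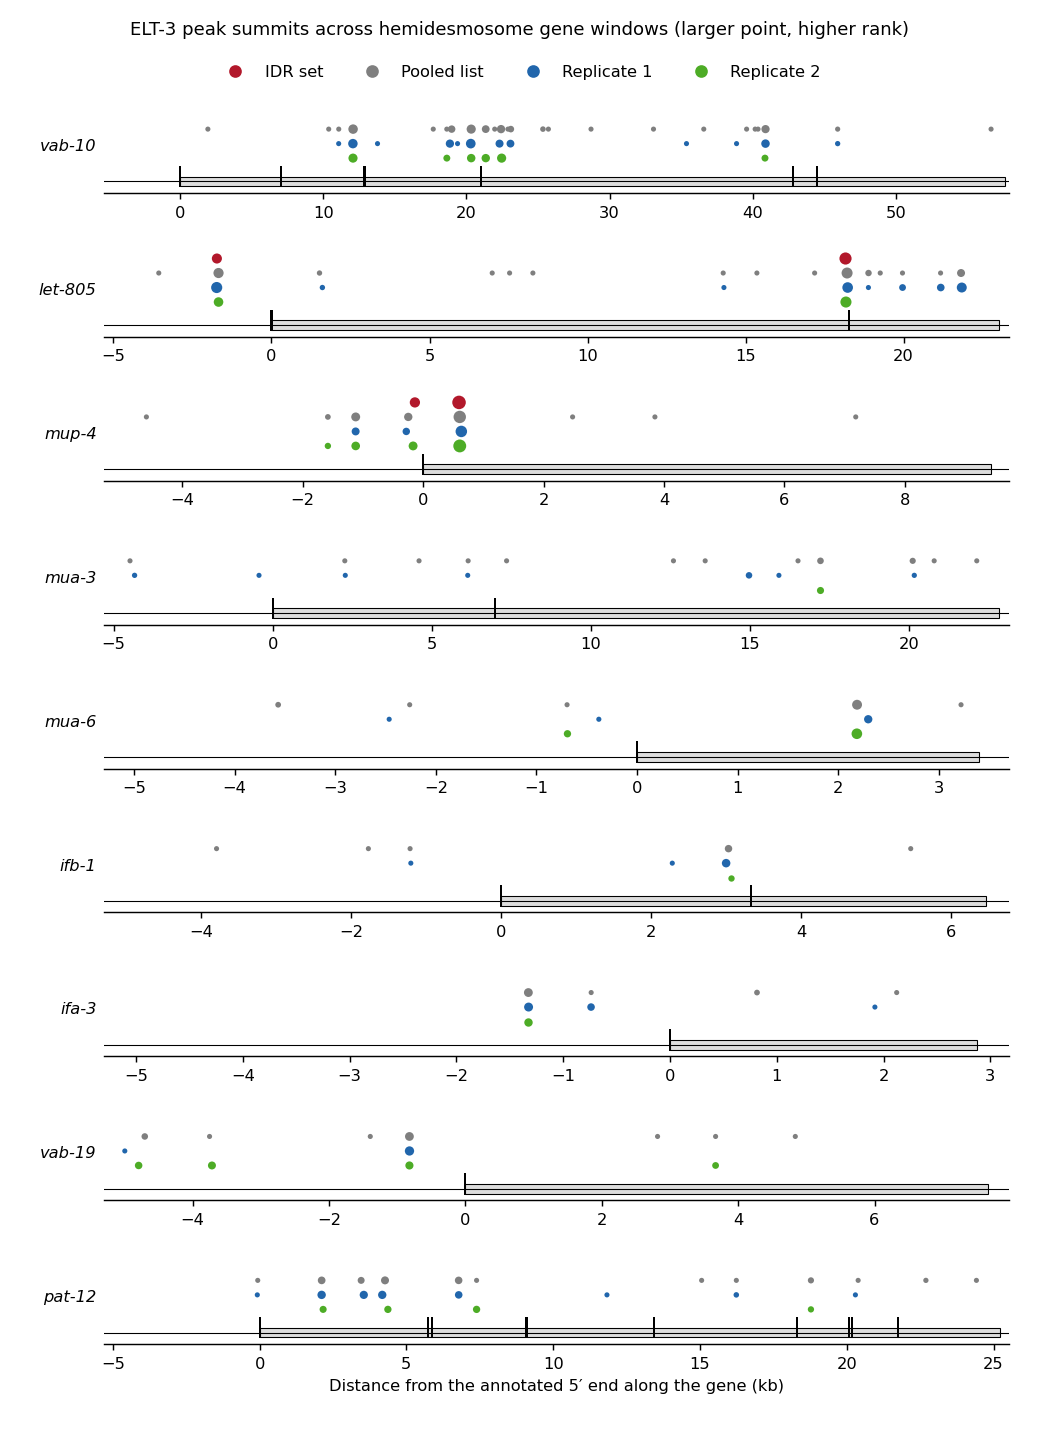
Peak summits of the IDR set (red), the pooled list (grey), replicate 1 (blue) and replicate 2 (green) in each gene's window, plotted by distance from the annotated 5′ end in kb, with the gene as a grey bar and annotated transcript starts as black ticks. Larger points are higher ranks in their own list, and red points are seen at let-805 and mup-4 alone.

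The sequences that the description turns on are the 101 bases centred on a summit, from the plus strand of the ce11 reference (the RefSeq copy of WBcel235), written 5′ to 3′. Capitals mark WGATAR, the GATA-factor site in which W is A or T and R is A or G, read on either strand, so that some sites appear as their reverse complement. The mup-4 and let-805 sequences contrast sites that have the motif with sites that lack it, and the last 3 are the motif-bearing sites of genes with no IDR peak. No sequence is shown for vab-10, ifa-3, pat-12 or mua-3. At vab-10, ifa-3 and pat-12 no site shared by the replicates had WGATAR within 50 bp of its pooled summit. Sites with the motif are thus more frequent among the printed sequences than among all shared sites.
mup-4 intron, chrIII:7488459-7488559: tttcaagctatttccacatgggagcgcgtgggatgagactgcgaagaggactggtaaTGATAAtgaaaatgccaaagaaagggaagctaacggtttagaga
mup-4 upstream, chrIII:7489192-7489292: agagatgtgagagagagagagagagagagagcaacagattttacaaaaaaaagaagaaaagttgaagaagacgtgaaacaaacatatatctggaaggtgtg
mup-4 farther upstream, chrIII:7490175-7490275: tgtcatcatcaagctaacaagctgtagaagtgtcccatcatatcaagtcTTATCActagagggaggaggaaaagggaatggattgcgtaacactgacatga
let-805 intron, chrIII:2676196-2676296: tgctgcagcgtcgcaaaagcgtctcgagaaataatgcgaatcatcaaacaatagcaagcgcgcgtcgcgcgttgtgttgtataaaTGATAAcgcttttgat
let-805 upstream, chrIII:2656305-2656405: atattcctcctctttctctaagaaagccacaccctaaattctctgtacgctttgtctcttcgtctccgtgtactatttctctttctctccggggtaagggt
mua-6 intron, chrX:16263447-16263547: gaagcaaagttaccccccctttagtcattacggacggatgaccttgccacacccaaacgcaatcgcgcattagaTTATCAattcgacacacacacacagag
ifb-1 intron, chrII:5768597-5768697: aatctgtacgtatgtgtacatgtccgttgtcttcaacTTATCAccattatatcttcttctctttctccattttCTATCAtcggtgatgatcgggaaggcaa
vab-19 upstream, chrII:2442408-2442508: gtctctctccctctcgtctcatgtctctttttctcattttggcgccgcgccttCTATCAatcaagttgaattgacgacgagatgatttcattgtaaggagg

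The gene mup-4 (WBGene00003497; III, 7479680 to 7489105, minus strand) encodes an apical transmembrane receptor with EGF-like repeats that holds the epidermis to the cuticle, and it carried the strongest peak of the 9 genes. That peak (III, 7488381 to 7488636) had an IDR signal of 102.8 and ranked 86 of 1014. The summit was intronic, 596 bp past the single annotated start. It ranked 211 in the pooled list, 403 in replicate 1 and 143 in replicate 2, with signals of 104.2, 33.3 and 72.6. It was high in both replicates, and the 4 summits lay within 38 bp of each other. The TGATAA in its sequence was centred 9.5 bp from the IDR summit and between 21.5 and 47.5 bp from the summits of the other lists.

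A second mup-4 peak of the IDR set (III, 7489114 to 7489369) lay just outside the gene, with its summit 137 bp upstream of the start. Its IDR signal of 48.9 ranked 907, near the lowest signal of that set (46.2). In the other lists it ranked 2676 pooled, 4145 in replicate 1 and 1997 in replicate 2, with signals of 35.1, 12.3 and 26.8. Its summits spread over 143 bp. No WGATAR lay within 50 bp of any of them and the printed sequence holds a run of GA repeats. The nearest WGATAR was 200.5 bp from the IDR summit.

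Another mup-4 site, 1120 bp upstream, had no IDR peak even though its pooled rank (1986) and replicate 1 rank (3231) were higher than those of the peak at 137 bp. Its replicate 2 rank, 2297, was lower. The pooled, replicate 1 and replicate 2 summits agreed to 1 bp, and a TGATAA was centred 1.5 bp from the pooled summit. The mup-4 window therefore held 2 sites with a GATA motif at the summit, on either side of 1 without it.

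The gene let-805 (WBGene00002915; III, 2658083 to 2681112, plus strand) encodes myotactin, the basal transmembrane receptor that faces the muscle. Its stronger IDR peak (III, 2676118 to 2676373) had a signal of 76.3 and ranked 252. The summit lay 18163 bp inside the gene but 105 bp before a later transcript start, at 2676351. It ranked 559 in the pooled list, 725 in replicate 1 and 529 in replicate 2, with signals of 75.4, 26.7 and 49.4 and was thus within the first 1014 of each list. The TGATAA in its sequence was centred 37.5 bp from the IDR summit, 12.5 bp from the pooled, 30.5 bp from the replicate 1 and 23.5 bp from the replicate 2 summit.

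The other let-805 peak of the IDR set (III, 2656227 to 2656482) lay in intergenic sequence 1728 bp upstream of the 5′ end. Its IDR signal, 46.3, ranked 1010 of 1014. It ranked 958 in the pooled list, 518 in replicate 1 and 1380 in replicate 2, with signals of 60.4, 30.4 and 32.4. In replicate 1 it thus stood above the intronic peak, and in the other 3 lists below it. The WGATAR nearest to any of its summits was 174.5 bp away. A further replicate 1 peak, ranked 1078 with a summit at 2679925, overlapped no replicate 2 peak.

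The gene mua-3 (WBGene00003482; III, 10160697 to 10183529, plus strand) encodes the other apical receptor, a relative of mup-4 with EGF-like repeats. It was the 1 gene of the 9 with no site shared by the replicates. Its highest pooled peak (signal 24.6) ranked 5832, its highest replicate 1 peak (signal 10.8) ranked 6025 and its only replicate 2 peak (signal 17.8) ranked 4753. The pooled and replicate 2 summits lay 1 bp apart in a coding exon, and the replicate 1 summit lay elsewhere, in another stretch of coding sequence. The apical receptor genes thus stood far apart, with the best rank of the 9 genes at mup-4 in each list and the poorest best rank at mua-3 in the pooled list and replicate 1, though in replicate 2 ifb-1 was lower still.

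Among the cytoplasmic linkers, vab-10 (WBGene00006876; I, 11747424 to 11804991, minus strand) encodes a spectraplakin, a large protein that ties membrane plaques to filaments. It is the longest of the 9 genes (57568 bp), with 8 annotated transcript starts, and it held 5 sites shared by the replicates, the most of any. All were intronic and none was in the IDR set. The highest, with its pooled summit at 11792901, lay 776 bp upstream of a later start and ranked 1438 pooled, 1455 in replicate 1 and 1774 in replicate 2, with signals of 49.1, 19.4 and 28.6. The next, at 11784655, lay 716 bp upstream of another start and ranked 1735, 1295 and 2508. Their summits agreed within 13 and 31 bp.

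The remaining vab-10 sites were lower in the pooled list and replicate 1. They ranked between 2705 and 4094 in the pooled list, between 2451 and 3123 in replicate 1 and between 1721 and 5130 in replicate 2. No WGATAR lay within 50 bp of a summit at any of the 5 vab-10 sites in any list. The whole vab-10 window held 111 WGATAR matches, or 1.77 per kb, compared with 2.38 per kb over the nuclear genome.

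The gene vab-19 (WBGene00006882; II, 2443279 to 2450947, plus strand) encodes a KANK-family ankyrin-repeat protein needed to keep the attachments in place. A site 821 bp upstream of its 5′ end ranked 2116 pooled, 1612 in replicate 1 and 2973 in replicate 2, with signals of 40.0, 18.4 and 21.8. The 3 summits agreed to 1 bp, and a WGATAR was centred 5.5 bp from the pooled one. Another site, 4702 bp upstream, was near the bottom of replicate 1 (rank 16149 of 17087, signal 7.76) and ranked 3975 of 7079 in replicate 2 (signal 19.1).

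The gene pat-12 (WBGene00003936; III, 727207 to 752426, minus strand) encodes a hemidesmosome protein of the plaques and has 12 annotated starts. Its 2 shared sites lay in introns. The site at 748154, upstream of a later start by 1461 bp, ranked 3164 pooled, 2678 in replicate 1 and 4382 in replicate 2. The site at 750312 ranked 3654, 2593 and 4809. In replicate 2 both were in the lower part of the 7079 peaks. At the first, the summits spread over 192 bp, so that a WGATAR was within 50 bp of the summit of either replicate but 91.5 bp from the pooled summit.

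The intermediate filament genes had 1 shared site each, and none was in the IDR set. The gene mua-6 (WBGene00003485; X, 16262289 to 16265686, minus strand) encodes the filament protein IFA-2. Its site, in an intron 2189 bp downstream of the start, had the highest pooled rank of any outside the IDR set among the 9 genes, 1128 (signal 55.7). It ranked 722 in replicate 2 (signal 43.6) but 2703 in replicate 1 (signal 14.4), and the replicate summits lay 113 bp apart. A TGATAA was centred 26.5 bp from the pooled summit. The nearest annotated start belonged to the neighbouring gene sgk-1, at 1375 bp. This was the sole site of the 17 nearer to another protein-coding gene's start.

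The gene ifb-1 (WBGene00002053; II, 5765618 to 5772084, plus strand) encodes the partner with which the IFA proteins assemble. Its site was in an intron, 298 bp upstream of the second of its 2 annotated starts. It ranked 4085 pooled (signal 28.4), 2429 in replicate 1 (signal 15.1) and 6494 of 7079 in replicate 2 (signal 15.96), close to the bottom of that list. With a TGATAA and another WGATAR within 50 bp of the pooled summit, centred 10.5 and 25.5 bp from it, this low-ranked site had the most motif matches of the 17.

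The gene ifa-3 (WBGene00002051; X, 16267197 to 16270069, minus strand) encodes another filament protein of this family and lies next to mua-6, so that the 5 kb upstream of mua-6 run into ifa-3. Its site was intergenic, 1326 bp upstream. It ranked 2076 pooled (signal 40.4), 1949 in replicate 1 (signal 16.8) and 2586 in replicate 2 (signal 23.3). The 3 summits agreed to 2 bp, and the nearest WGATAR was 293.5 bp from the pooled summit.

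**Figure D2:**
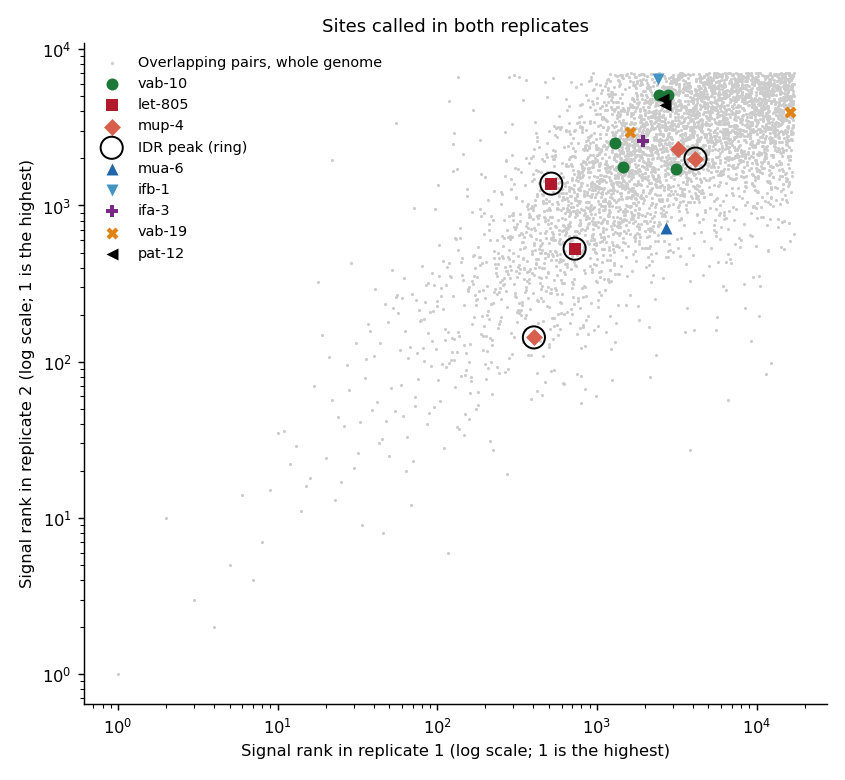
Signal rank in replicate 1 (x axis, log scale) against replicate 2 (y axis, log scale) for overlapping peak pairs of the whole genome (grey) and for the 17 sites of the hemidesmosome genes (colored by gene, rings marking an IDR peak). The stronger mup-4 site, at ranks 403 and 143, stands apart, and the mup-4 site with ranks 4145 and 1997 has a ring although higher-ranked vab-10 and mua-6 sites do not.

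Over the 17 shared sites, 11 lay in introns, 6 in intergenic sequence and none in an exon, at the IDR summit or otherwise the pooled summit. Over the 4387 pooled summits overlapped by a peak of each replicate, 26.7% were intronic, 59.4% intergenic and 14% exonic. The 4387 were taken over the whole genome, whereas the 17 could lie only in a gene or the 5 kb upstream of it. The shares are therefore not like for like and show no preference for introns. The 5 intronic sites of vab-10 come from 1 long gene, and sites in the same gene are not independent. Of the 17, 6 lay at most 1 kb upstream of an annotated start of their own gene. These were the IDR peaks at 105 bp (let-805) and 137 bp (mup-4) and the sites of ifb-1, vab-19 and vab-10 (at 716 and 776 bp), and 4 of them were next to a later start rather than the 5′ end.

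GATA sites stood at about the same share of these sites as of all sites found in both replicates. Of the 17 summits, 6 had WGATAR within 50 bp, a share of 35.3% (Wilson interval at 95%, 17.3 to 58.7%). The share was 36.5% over the 4387 pooled summits overlapped in both replicates, 52.6% over all IDR summits, 22.2% in windows 500 bp to either side of IDR summits, and 19.8% in all windows of 101 bp tiled over the nuclear genome. The interval includes every one of these shares, so the 17 sites cannot tell them apart. The 6 sites with WGATAR were 2 at mup-4 and 1 each at let-805, mua-6, ifb-1 and vab-19. TGATAA was among the matches at all but the vab-19 site. Read at the replicate summits instead, 8 sites had WGATAR in replicate 1 and 7 in replicate 2, the additional ones being the first pat-12 site in both and the distant vab-19 site in replicate 1.

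GAGAGA, searched on both strands, was within 50 bp of 7 of the 17, or 41.2% (21.6 to 64%), against 20% of the 4387 summits, 26.2% of all IDR summits, 25.9% of the 1014 highest pooled summits and 5.18% of all 101-bp windows of the genome. The interval includes the shares of the IDR and the highest pooled summits, and its lower end lies just above the 20% of the 4387. Sites in the same gene are not independent, so the interval is too narrow and does not show an excess. The weaker IDR peaks of mup-4 and let-805 had it, as did the ifa-3 site, both pat-12 sites, the highest vab-10 site and the vab-19 site near the gene. Among the 4 IDR peaks, the 2 intronic ones had WGATAR and no GAGAGA within 50 bp, and the 2 upstream ones GAGAGA and no WGATAR. The split depended on that limit, since GAGAGA was centred 62.5 and 64.5 bp from the intronic mup-4 summit. GAGAGA was read at the IDR or otherwise the pooled summits, not at those of the replicates. With 4 peaks in 2 genes the split is a description, and a match shows neither which factor was bound nor why.

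Most GATA motifs in these genes did not lie within 50 bp of an IDR or pooled summit. The 9 windows held 434 WGATAR matches, with those in the stretch that mua-6 and ifa-3 share counted for each gene. Of these, 2 lay wholly within 50 bp of an IDR summit and 33 within 50 bp of some pooled summit. The like share over the 238156 matches of the nuclear genome was not taken, so these counts show no trait of the 9 genes. The density of matches ran from 1.77 per kb in vab-10 to 3.05 per kb in ifb-1.

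**Figure D3:**
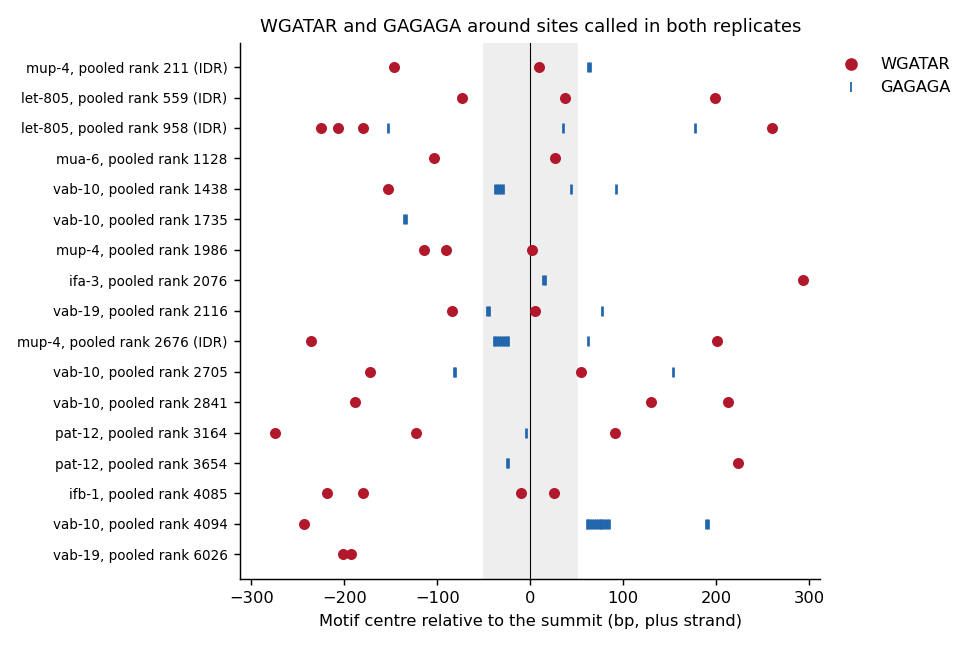
Centres of WGATAR (red points) and GAGAGA (blue bars) within 300 bp of the summit of each of the 17 sites called in both replicates, ordered by pooled rank, with distance in bp along the plus strand. The grey band is the 50 bp on either side of the summit. The 6 sites with a red point inside it range from pooled rank 211 to 4085.

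Genes whose products work with the hemidesmosome were examined by the same window in 6 lists holding 39 genes. An IDR summit was present at 5 of the 39, or 12.8%, against 7.01% of all genes, 9.39% of those with a window of at least 7.87 kb and 13% of those with at least 14.43 kb. The median window of the 6 lists ran from 8849 to 15502 bp, so the share is near that of genes of like length. They were pak-1 and pix-1 of the 4 genes of the tension-sensing pathway that acts at hemidesmosomes, spc-1 (alpha spectrin) of 3 spectrin genes, unc-52 (perlecan of the muscle basement membrane) of 13 muscle attachment and basement membrane genes, and dlg-1 (a Discs large scaffold of cell junctions) of 6 junction genes. None was present at the 8 other intermediate filament genes or at 5 genes of the apical matrix. With no IDR peak at mua-6, ifb-1 and ifa-3 either, no intermediate filament gene examined here had one. At a share of 7.01% of all genes, or 9.39% of those with a window of at least 7.87 kb, an absence from so few genes says little.

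Of these neighbours in function, the pak-1 peak (X, 6050911 to 6051166, signal 67.4, IDR rank 370) lay 2431 bp upstream of pak-1 and nearer to the start of C45B2.6, with replicate ranks of 390 and 989. The spc-1 peak (X, 3127753 to 3128008, signal 59.4, IDR rank 544) lay 802 bp upstream and ranked 376 in replicate 1 and 339 in replicate 2. The unc-52 peak (II, 14665210 to 14665465, signal 64.8, IDR rank 421) was intronic, 19118 bp inside the gene, and ranked 380 and 852. Those 3 were within the first 1014 of both replicates. The dlg-1 peak (signal 62.0), 4462 bp upstream, ranked 1344 and 4267, and the pix-1 peak (signal 55.5), in an intron, overlapped no peak of the pooled or replicate lists. WGATAR was near the summit at pak-1 and unc-52.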

How the data were processed

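ChIP-seq peaks of tagged ELT-3 in whole L1 larvae, 2 biological replicates, were used as deposited on ce11. The deposited records trace the long lists to ChIP and control alignments, and the IDR set to the long lists. No aligner, caller or threshold is given in the sources used here. The signal of each peak, as the authors deposited it, gave the ranks. The q-value score that the authors deposited was not used. No peak of the IDR set was listed unchanged in the pooled list, although 905 of the 1014 overlapped a peak in each of the other lists. The ce10 lists were not used.

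Genes and starts came from Ensembl release 115 (WBcel235, the same assembly as ce11), protein-coding only, and sequence from the RefSeq copy of that assembly. Coordinates are 1-based. A gene was counted if a summit lay from 5 kb upstream of its 5′ end to its 3′ end, so 1 peak can count for more than 1 gene. Peaks of any list that overlapped by 1 bp formed a site, and a site was shared if a replicate 1 peak and a replicate 2 peak overlapped. Motifs had to lie wholly within 50 bp of the summit, on either strand. No test was run on the 9 genes, and shares over all genes stand in its place. Alternatives changed the peak list, threshold, window, assignment, motif, overlap and list length. The members and lists were chosen with earlier results of these data known. All 9 genes and their IDR peaks or highest peaks were named by rule. The mup-4 sequence farther upstream, the GAGAGA search and the other shared sites were picked outside the rule, with their values known. Python 3.11.15, numpy 2.4.6, pandas 2.3.3 and scipy 1.17.1 were used, and counting was tested on simulated data.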

Additional observations from a re-analysis of the deposited data

How the results depend on the processing

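The number of hemidesmosome genes with a peak was 2 under 8 of 9 alternative settings, ranging from 2 to 3 when either replicate was left out, since mua-6 joined with the 1014 highest peaks of replicate 2 alone. Leaving out a replicate gave 3 peaks in the windows in either case, against 4 in the IDR set, and 2 to 3 genes with WGATAR at a summit. The number of peaks was 2 with the 507 IDR peaks highest in signal, and 2 with the gene body only. The number of genes with WGATAR at an IDR summit was 1 with a motif window of 25 bp, because the let-805 site is centred 37.5 bp away. The number of genes with a strong peak in both replicates was 1 with 507 peaks per replicate and 8 with all peaks of each replicate. The other alternatives stayed within 1.5 times the main count. No paired analysis was possible because there is 1 group. Read depth is unknown, so a missing peak is not shown to be missing binding.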

Other observations

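Membership in the IDR set followed rank in the 3 other lists only in part at these genes. The IDR peaks with pooled ranks of 211, 559 and 958 stood above every other site of the 9 genes in that list. Over all IDR peaks the median best rank was 694 pooled, 724 in replicate 1 and 651 in replicate 2. The mup-4 peak at 137 bp upstream is in the set with ranks of 2676 pooled, 4145 in replicate 1 and 1997 in replicate 2, while the vab-10 site at 11792901 (1438, 1455 and 1774) and the mua-6 site (1128, 2703 and 722) rank higher in all 3 lists and are not. Over the genome, 1585 pooled peaks ranked at least as high as that mup-4 peak in all 3 lists, of which 751 overlapped an IDR peak and 834 did not. The cause was not tested.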
